A study of Mus musculus with 12 samples.

Results

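Transcript levels after transfection of miR-34a were compared with those after transfection of miR-324 in primary cultures of mouse TG (trigeminal ganglion) neurons, which carry touch, pain and temperature from the head. The arrays were chosen by their titles, 3 naming miR-34a and 3 naming miR-324, and they are 6 of the 12 arrays of a study on neural reprogramming in head and neck cancer. All 12 arrays held RNA of TG neurons plated on laminin and transfected with a miRNA, hybridised to Clariom S Mouse arrays. The other 6 arrays, 3 with miR-21 and 3 with scramble miRNAs, entered the fit, and the scramble arrays are given here for reference. Strain, age and sex of the mice, any genetic change they carried, the dose and duration of transfection and any pooling of animals are not in the labels.

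The labels of miR-34a 1 and 2 carry a suffix, called suffix A here, that they share with scramble 1 and 2. miR-34a 3 carries none and is given apart from that pair. Of the miR-324 arrays, numbered 1, 2 and 4 as in the labels, array 2 carries another suffix, called suffix B, shared with scramble 3, and both of those labels also contain the word mimic. The labels do not say what the suffixes mean, and they put no miR-324 array under suffix A. miRNA and suffix therefore cannot be told apart in the direct comparison of the pair with miR-324. A fit with the suffix as a fixed block reaches the pair's value only through scramble. It takes the pair minus scramble 1 and 2, less miR-324 2 minus scramble 3. miR-324 1 and 4 drop out of that value, which rests on single arrays of suffix B. Whether replicates were separate cultures or animals is not stated, and the p-values here therefore describe a spread between samples that could be technical.

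A microRNA is carried by an Argonaute protein to messenger RNAs that pair with its seed, near its 5′ end, and lowers their translation and stability. miR-34a is transcribed under control of p53 and is known for repressing mRNAs of the cell cycle, of survival and of Notch and receptor tyrosine kinase signalling. miR-324 is best known for targets in the Hedgehog pathway, and in the brain for the potassium channel gene Kcnd2. Which arm of either precursor was transfected is not stated, so both arms are shown. They are the mature mouse sequences of RefSeq, build GRCm38.p6, written 5′ to 3′ with the seed, bases 2 to 8, in capitals.
mmu-miR-34a-5p: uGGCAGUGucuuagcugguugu
mmu-miR-34a-3p: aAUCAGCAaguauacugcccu
mmu-miR-324-5p: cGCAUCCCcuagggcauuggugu
mmu-miR-324-3p: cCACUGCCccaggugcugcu
The miR-34a arms lie at chr4:150068473-150068494 and chr4:150068517-150068537, and the miR-324 arms at chr11:70012060-70012082 and chr11:70012095-70012114, all on the plus strand. No seed is shared between these 4 arms. Among the 1679 mature mouse miRNAs of the table, 3 others have the seed of miR-34a-5p, namely miR-34b-5p, miR-449a-5p and miR-449c-5p.

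The deposited values are log2 signals, so a difference of 1 is 2-fold, and 19572 of the 22206 probes were paired with 1 gene symbol. Array medians lay between 5.91 and 6.06. Genes of olfactory and vomeronasal receptors, 1414 probes that should be silent here, give the level of the array floor: their median was 3.57, 3.53 and 3.76 on miR-34a 1, 2 and 3 and 4.02, 3.84 and 3.89 on miR-324 1, 2 and 4. The floor was thus slightly higher on the miR-324 arrays. Between miR-34a 1 and 2, 250 genes (1.28%) differed by more than 2-fold, against 3592 (18.4%) between miR-34a 3 and the mean of that pair. miR-34a 3 differed by more than 2-fold from miR-324 1 at 10.8% of genes, from miR-324 4 at 14.6% and from miR-324 2 at 16.7%. It was therefore nearer to each miR-324 array than to the miR-34a pair, by this count. The miR-324 arrays differed among themselves at 6.02% (2 and 4), 12.5% (1 and 4) and 15.6% (1 and 2).

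With 3 arrays against 3, no gene passed the threshold between miR-34a and miR-324. limma, fitted to all 12 arrays with Benjamini-Hochberg adjustment over the 19572 named probes, called 0 genes at an adjusted p under 0.05 (0%), and the smallest adjusted p was 0.318. At an unadjusted p under 0.05 there were 2544 genes (13%), 1225 higher (6.26%) and 1319 lower (6.74%) with miR-34a. Weighting arrays by their estimated quality gave 2806 calls, leaving out miR-34a 3 gave 801, and leaving out miR-324 2 gave 1. The 3 miR-34a values did not overlap the 3 miR-324 values at 3339 genes (17.1%), 1529 of them higher (7.81%) and 1810 lower (9.25%) with miR-34a. On the side of the lower genes, 243 of the 1414 receptor probes at the floor (17.2%) also separated, against 15 (1.06%) on the other side. The median difference of all genes was -0.03. Of the 3339 separated genes, scramble 3 lay outside the miR-324 range on the miR-34a side at 1544 (46.2%) and at or beyond the nearest miR-324 array at 1795 (53.8%).

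The separated genes with the smallest unadjusted p and higher values after miR-34a included enzymes of nucleotide and phospholipid synthesis, a translation factor and proteins of membrane traffic. None passed the threshold over all arrays, and each had an adjusted p of 0.318 in limma. Values are listed for miR-34a 1, 2 and 3 and for miR-324 1, 2 and 4, in that order. Pcyt1b, which makes the activated choline used for phosphatidylcholine, was at 9.87, 9.76 and 9.21 with miR-34a and 6.35, 6.61 and 7.20 with miR-324, a log2 difference of 2.89 (SE 0.57). Pla2g7, the secreted enzyme that breaks down platelet-activating factor, stood at 10.13, 10.17 and 8.82 against 6.72, 7.01 and 7.63, a difference of 2.59 (SE 0.56). In both genes miR-34a 3 was the lowest of its group but lay above every miR-324 array, and scramble 3 (9.62, 9.90 and 7.27 on scramble 1, 2 and 3 for Pcyt1b, 10.05, 10.55 and 8.06 for Pla2g7) was far below the other scramble arrays.

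Ctps2, a CTP synthase, had tight groups, with 11.01, 10.98 and 10.96 after miR-34a, 9.72, 9.86 and 9.96 after miR-324 and 10.67, 11.12 and 10.52 after scramble, and a difference of 1.14 (SE 0.21). Tpmt, which methylates thiopurines, gave 8.24, 7.88 and 8.40 against 6.64, 7.07 and 7.09, a difference of 1.24 (SE 0.23), and 8.31, 8.29 and 7.99 on the scramble arrays. For Tpmt the miR-324 arrays lay below all 9 other arrays of the study, whereas for Ctps2 the miR-21 arrays were as low, at 9.94, 10.05 and 9.93. Eif5a2, a tissue-restricted form of a translation elongation factor, was at 9.69, 9.63 and 9.25 against 7.86, 8.17 and 8.15, a difference of 1.46 (SE 0.28). Rab39, a small GTPase of vesicle traffic, was at 6.81, 7.01 and 5.78 against 5.13, 4.94 and 5.10, a difference of 1.48 (SE 0.31). Serinc5, a membrane protein that restricts retroviral infection, was among the brightest at 15.24, 15.11 and 15.49 against 13.52, 13.82 and 13.84, a difference of 1.55 (SE 0.33). In Serinc5 the lone miR-34a array was the highest of its group, in Rab39 and Eif5a2 the lowest.

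Of the remaining 5 genes on that side, Atxn7l3b differed by 1.65, the centrosomal gene Cep128 by 1.52, Scaper, which binds cyclin A, by 1.33, Efhc2 by 1.12 and Gskip, which binds the kinase GSK3B, by 0.91. Their SEs lay between 0.18 and 0.33. Efhc2 was close to the array floor in both groups, at 4.56, 4.51 and 4.18 with miR-34a and 3.44, 3.44 and 3.02 with miR-324. All of these values lay under the 95th percentile of the floor probes.

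On the side lower after miR-34a, the separated genes included a Notch receptor, an innate immune sensor, adhesion and scaffold proteins and the pituitary hormone Prl, each again at an adjusted p of 0.318. Notch4, a Notch receptor found mainly in endothelium, was at 5.29, 5.34 and 5.80 with miR-34a and 7.16, 7.25 and 6.74 with miR-324, a difference of -1.57 (SE 0.28). It was the gene with the widest gap between the miR-324 arrays and all 9 others, 0.94, with 4.89, 4.95 and 5.78 on the scramble arrays. Dgat1, which completes triglyceride synthesis, gave 4.16, 4.80 and 3.98 against 5.60, 6.16 and 5.77, a difference of -1.53 (SE 0.27), and also lay above all 9 others on the miR-324 arrays. For both genes the levels after miR-34a and scramble overlapped. Dgat1 lay under the 95th percentile of the floor probes on the miR-34a arrays and on miR-324 1, so its difference is limited by the floor.

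Shank3, a scaffold of excitatory synapses, was at 4.68, 4.71 and 6.24 against 6.98, 7.48 and 6.92, a difference of -1.92 (SE 0.39), with miR-34a 3 well above the other miR-34a arrays. Mef2c, a transcription factor of neurons, muscle and endothelium, was at 9.11, 9.08 and 9.46 against 10.54, 10.47 and 10.51, a difference of -1.29 (SE 0.26). Tns1, the focal adhesion protein tensin 1, was at 12.11, 11.93 and 12.13 against 13.40, 13.79 and 13.31, a difference of -1.44 (SE 0.29). Scramble 3 stood between the miR-34a and miR-324 arrays for Mef2c (9.38, 9.33 and 9.93 on scramble 1, 2 and 3) and Tns1 (11.91, 12.03 and 13.05), and lay below miR-34a 3 for Shank3 (4.78, 5.05 and 5.45). Arhgap23 was at 9.13, 9.16 and 9.48 against 10.70, 10.67 and 10.76 and differed by -1.45 (SE 0.25). Nod2, a cytosolic sensor of bacterial cell wall fragments, was at 4.44, 4.35 and 4.58 against 6.27, 5.57 and 5.92, a difference of -1.46 (SE 0.29). Its miR-34a values, and those of Shank3 on miR-34a 1 and 2, lay under the 95th percentile of the floor probes. Parp10, a mono-ADP-ribosyltransferase, was at 7.42, 7.67 and 8.41 against 10.26, 9.70 and 9.89, the largest of these differences apart from Prl at -2.12 (SE 0.43).

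Epcam, an epithelial adhesion molecule, was at 2.97, 3.09 and 3.14 against 4.58, 3.98 and 4.73, a difference of -1.36 (SE 0.28), and its miR-34a values lay below those of all 9 other arrays, though its values in both groups were under the 95th percentile of the floor probes. The Schlafen pseudogene Slfn10-ps had the smallest unadjusted p of the comparison, 4.24e-05, with a difference of -1.60 (SE 0.26), but probes of this family may not tell its members apart. The vomeronasal receptor Vmn1r29, at 3.64, 4.00 and 3.84 against 5.35, 4.73 and 5.25, lay near the floor in both groups.

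**Figure D1:**
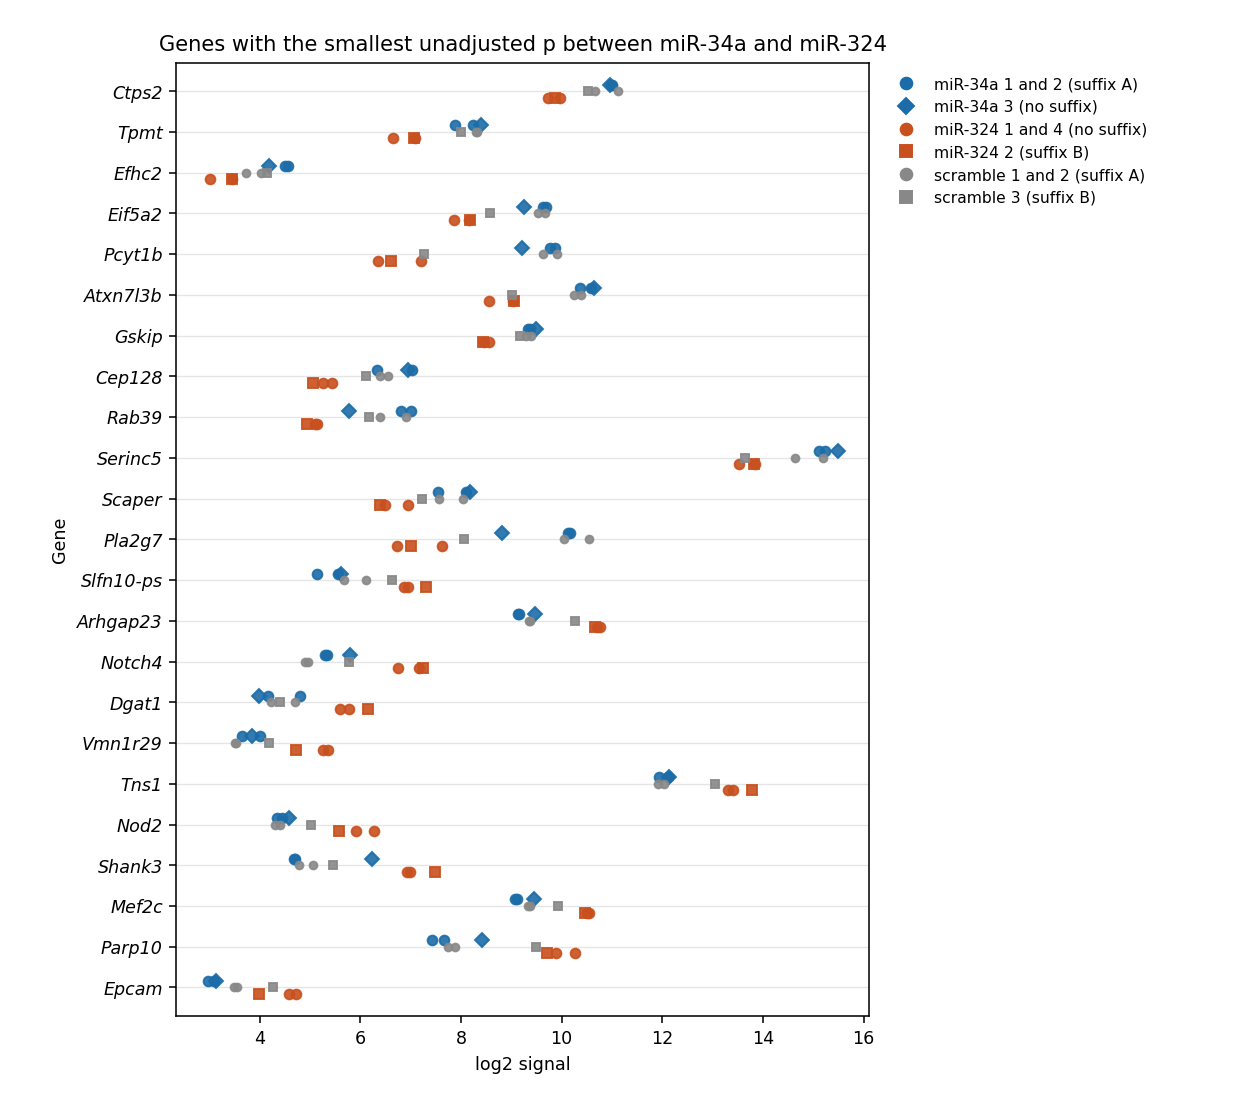
Log2 signal (x axis) of 23 separated genes (y axis) with the smallest unadjusted p between miR-34a and miR-324, Prl left out, 1 marker an array. Blue stands for miR-34a (circles arrays 1 and 2, diamond array 3), orange for miR-324 (circles 1 and 4, square 2) and grey for scramble (circles 1 and 2, square 3); for Serinc5 the miR-34a arrays reach 15.49 and the miR-324 arrays 13.84.

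Both groups were also set against all other arrays of the study. At 238 genes the 3 miR-324 values lay above those of all 9 other arrays and at 187 below, against 27 and 78 for miR-34a. Besides the genes already given, those with the widest gaps, taken after their values were seen, included Cd40, a co-stimulatory receptor, and Efnb2, an ephrin ligand that marks arterial endothelium. Cd40 was at 5.83, 5.97 and 5.69 with miR-324 against 5.09, 4.80 and 5.03 with miR-34a, 4.82, 4.59 and 5.13 with scramble and 4.72, 5.14 and 5.10 with miR-21. Efnb2 was at 14.40, 14.14 and 14.33 with miR-324 against 12.61, 12.27 and 13.10 with miR-34a, 12.50, 12.15 and 13.60 with scramble and 12.72, 12.56 and 12.76 with miR-21. Ctsc, a lysosomal protease, was lower with miR-324, at 7.82, 8.59 and 8.22 against 12.84, 12.79 and 9.32 with miR-34a, 12.54, 13.08 and 9.10 with scramble and 9.68, 9.13 and 10.02 with miR-21. These are descriptions with no test of their own.

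The largest difference in either direction was that of Prl, the gene of prolactin, a hormone made mainly by the pituitary. Prl was at 3.37, 4.22 and 4.01 on the miR-34a arrays and at 14.98, 14.26 and 15.17 on the miR-324 arrays, a log2 difference of -10.94 (SE 2.09). Of the other arrays, scramble 3 was as high, at 14.92, while scramble 1 and 2 were at 3.42 and 4.83 and the miR-21 arrays at 3.37, 3.95 and 3.98. The miR-34a values lay at the array floor, so the difference is limited by that floor. In a fit of only the 6 arrays compared, Prl was the single gene called, at an adjusted p of 5.72e-05, whereas over all 12 arrays its adjusted p was 0.318. Of 7 pituitary hormone genes, 6 were lower on all miR-34a arrays, against 9.25% of all genes and 17.2% of the receptor probes at the floor. The median difference of the 7 was -1.84, against -0.03 for all genes. With the suffix as a fixed block that median was -1.04, and 0.65 for the pair alone against -1.90 without the block. In bulk RNA of this kind, fewer cells of a type and less RNA per cell cannot be told apart.

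Cga, the alpha chain shared by the glycoprotein hormones, was at 3.56, 2.95 and 3.39 against 12.82, 8.69 and 11.26, a difference of -7.62 (SE 1.71). Growth hormone, Gh, was at 3.85, 3.90 and 3.87 against 4.45, 9.15 and 8.34, so that miR-324 1 was close to the floor while 2 and 4 were not. Pomc, the precursor of ACTH and melanocortins, was at 4.83, 4.79 and 4.97 against 5.99, 6.72 and 7.41, a difference of -1.84 (SE 0.53). Lhb, the luteinizing hormone chain, was at 3.34, 3.34 and 3.30 against 6.23, 4.03 and 4.99, and Fshb, the follicle-stimulating hormone chain, at 4.59, 4.07 and 4.58 against 6.16, 4.84 and 5.03. On miR-324 2 and 4 both Lhb and Fshb lay under the 95th percentile of the floor probes. Tshb, the thyrotropin chain, overlapped, at 5.43, 4.64 and 5.18 against 4.82, 4.93 and 4.99. The hormone signal was thus on every miR-324 array and no miR-34a array for Prl and Cga, and weaker and uneven for the others.

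Of 23 measured pituitary transcription factors, receptors and granule genes, 5 were separated and lower after miR-34a (Gnrhr, Avpr1b, Ghsr, Sstr5 and Chgb). Of all genes 9.25% were, and of the olfactory and vomeronasal receptor probes at the floor 17.2%. Another 1 was separated and higher (Lhx4), against 7.81% of all genes, and the median difference was -0.21. Gnrhr, Avpr1b and Ghsr lay under the 95th percentile of the floor probes on every miR-34a and miR-324 array. Gnrhr, the gonadotropin-releasing hormone receptor, was at 3.25, 3.31 and 3.53 against 5.14, 3.78 and 5.10. Whether pituitary cells or RNA took part in the other differences between these groups was not tested.

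The promoter of Prl is shown because its transcript gave the widest separation of the 2 groups. It is the 250 bases before the start of the gene (RefSeq, GRCm38.p6, chr13:27057320-27057569, plus strand), with matches to the POU1F1 letters TATNCAT on either strand in capitals.
Prl: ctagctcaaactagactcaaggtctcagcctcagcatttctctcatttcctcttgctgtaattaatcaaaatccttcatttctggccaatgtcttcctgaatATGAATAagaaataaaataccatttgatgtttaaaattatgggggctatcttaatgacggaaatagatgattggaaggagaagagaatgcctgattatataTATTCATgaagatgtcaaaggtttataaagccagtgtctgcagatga
It held 2 matches. Of 6 pituitary hormone genes with a promoter in the table, only Prl had one, against 1216 of 15691 measured genes (7.75%). A match is a description of letters and was not tested as a binding site.

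Set against the same miR-324 arrays, the suffix A pair alone gave 801 calls in limma with Benjamini-Hochberg adjustment (4.09%), 502 higher (2.56%) and 299 lower (1.53%). The higher genes with the largest differences were macrophage genes, and the lower ones included pituitary, endothelial and interferon-induced genes. The median difference of all genes was -0.10. The calls depended on single arrays: none were left without miR-324 1 (smallest adjusted p 0.0789), without miR-324 4 (0.0681), without miR-34a 1 (0.28) or without miR-34a 2 (0.261), while 839 were called without miR-324 2. None were left when the suffix was a fixed block (0.999) or random block (0.107). The fixed block leaves miR-324 1 and 4 out of the pair's value, so its lack of calls does not test the pair against all miR-324 arrays. All adjusted p-values of the pair given below share these limits. Each count of list members that passed in the pair is to be read beside the shares of all genes, 2.56% higher and 1.53% lower. miR-34a 3 shares the miR-324 arrays as its control, so its values are given beside those of the pair and not counted as support for them.

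Lyz2, the lysozyme of macrophages and granulocytes, was at 14.03, 13.60 and 5.58 on miR-34a 1, 2 and 3 and at 5.03, 6.15 and 6.17 on miR-324 1, 2 and 4. The pair exceeded miR-324 by 8.03 on the log2 scale (SE 1.50, adjusted p 0.0382, limma), 262-fold, whereas miR-34a 3 differed from miR-324 by -0.20. Scramble showed the same split, with 14.08, 13.98 and 7.20 on scramble 1, 2 and 3. Mpeg1, a pore-forming protein of phagocytes, was at 10.96, 11.42 and 4.54 against 4.10, 4.26 and 4.85, C1qb, a chain of complement C1q, at 10.22, 10.12 and 3.10 against 3.57, 3.81 and 3.73, and Spi1, the myeloid transcription factor PU.1, at 13.23, 13.32 and 7.14 against 6.22, 7.50 and 6.98. The differences of the pair were 6.79, 6.47 and 6.37, each at an adjusted p of 0.0382. Cd36, a scavenger receptor, and Pf4, a chemokine of platelets and macrophages, were higher in the pair by 6.34 and 6.28 (both adjusted p 0.0382). On the miR-324 arrays Mpeg1, C1qb, Cd36 and Pf4 lay under the 95th percentile of the floor probes (5.71, 5.44 and 5.44 on miR-324 1, 2 and 4), so their differences, like that of Prl, are limited by the floor. In 5 of these 6 genes miR-34a 3 lay inside the miR-324 range, and for C1qb it lay below all miR-324 arrays.

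Of 21 measured macrophage genes, 14 passed the threshold in the pair, all of them higher, against 2.56% of all genes. Csf1r, the receptor of the macrophage growth factor, was at 9.20, 8.79 and 4.74 with miR-34a and 5.03, 4.05 and 4.80 with miR-324, and the pair was higher by 4.37 (SE 1.02, adjusted p 0.0422). The median of the list was 7.81, 7.38 and 4.61 on the miR-34a arrays, 4.70, 4.58 and 4.85 on the miR-324 arrays and 7.90, 7.85 and 5.03 on the scramble arrays. The median difference of the list was 3.42 for the pair and -0.09 for miR-34a 3. With all 3 miR-34a arrays it was 2.30, and 3 members were separated and higher, Cx3cr1, Ptprc and Fcgr3, against 7.81% of all genes. With the suffix as a fixed block the median for the pair was 0.49. Of 8 complement genes, 3 passed as higher in the pair, against 2.56% of all genes. They were the anaphylatoxin receptors C3ar1 and C5ar1 and the inhibitor Serping1. No member passed among 6 MHC class II genes and 11 T and mast cell genes, whose median differences were 0.59 and 0.16.

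**Figure D2:**
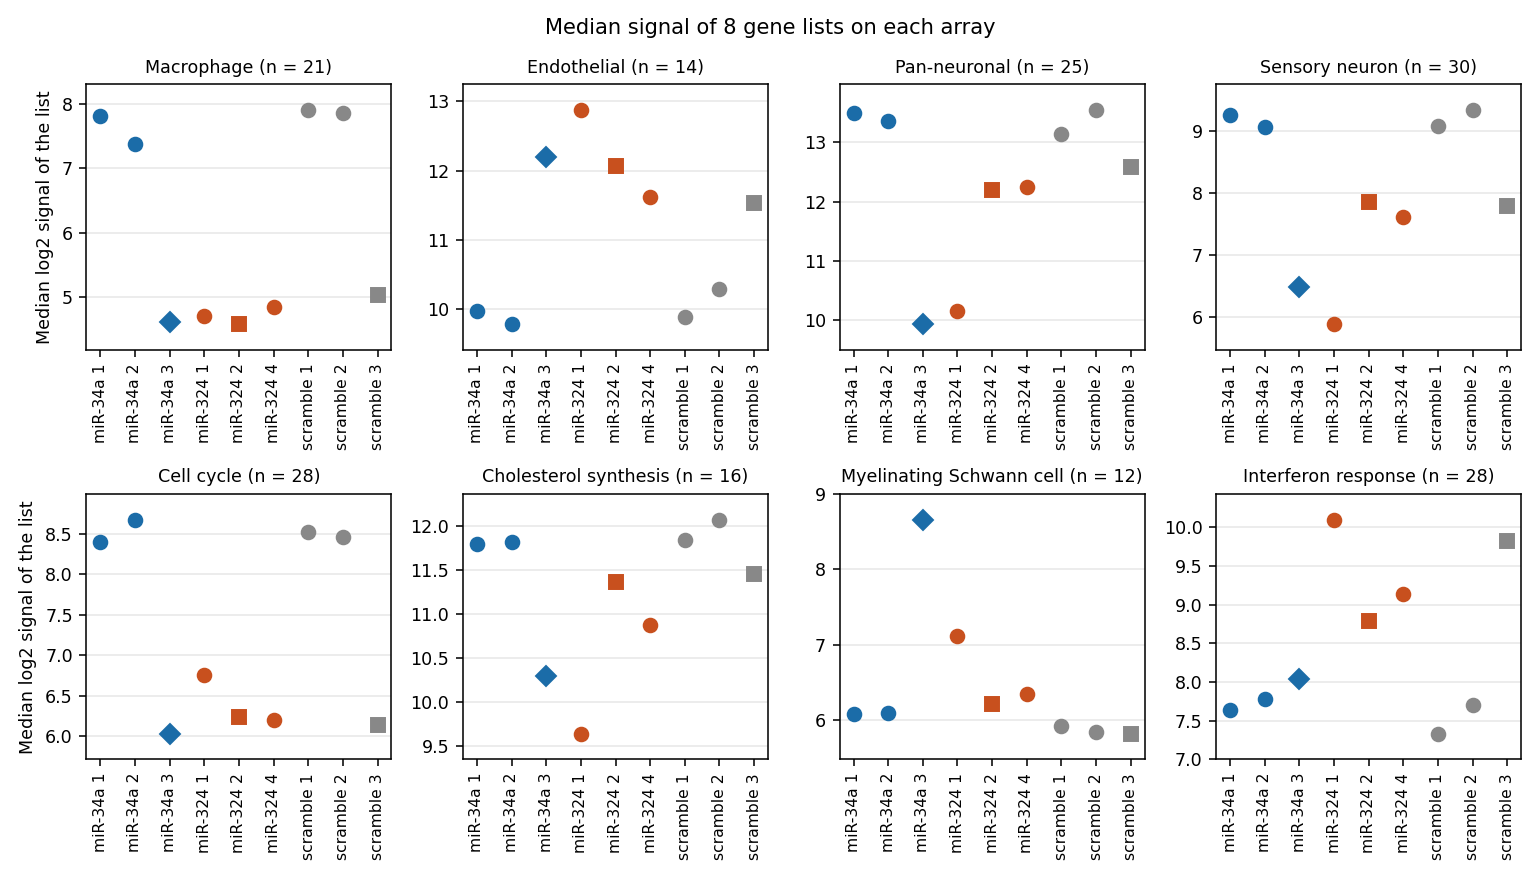
Median log2 signal (y axis) of 8 gene lists on each array (x axis), n being the number of measured genes, with blue for miR-34a, orange for miR-324 and grey for scramble, circles for suffix A or no suffix, squares for suffix B and a diamond for miR-34a 3. The macrophage median was 7.81 and 7.38 on miR-34a 1 and 2 and 4.61 on miR-34a 3, and the interferon medians of all 3 miR-34a arrays lay below those of all 3 miR-324 arrays.

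The lower genes of the pair were led by Prl, which differed by -11.01 (SE 2.34, adjusted p 0.0396), and Cga, which differed by -7.67 (SE 1.91, adjusted p 0.0474); miR-34a 3 differed by -10.79 and -7.53. Apln, the ligand of the apelin receptor made by endothelial tip cells, was at 7.76, 7.32 and 12.77 against 14.38, 10.95 and 12.38, -5.03 in the pair (SE 1.05, adjusted p 0.0382). Here miR-34a 3 lay inside the miR-324 range. The interferon-induced GTPase genes Tgtp2, at 4.90, 5.30 and 9.82 against 12.37, 7.76 and 9.73, and Gvin1, at 8.83, 9.29 and 13.33 against 15.46, 11.24 and 12.95, were lower in the pair, with differences of -4.85 and -4.16 (adjusted p 0.0422 and 0.0405). miR-34a 3 again lay inside the miR-324 range for both. The keratin-associated protein gene Krtap4-16 was at 5.32, 5.95 and 9.12 against 9.59, 10.66 and 8.98, -4.11 in the pair (adjusted p 0.0422). With the suffix as a fixed block the differences of Prl, Cga, Apln and Tgtp2 turned positive (0.33, 2.68, 0.38 and 0.68). Those values go through scramble 3 and miR-324 2 and leave out miR-324 1 and 4. They therefore do not test the pair against the miR-324 arrays.

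Endothelial genes were lower in the suffix A pair than with miR-324, 8 of 14 past the threshold, against 1.53% of all genes, and none higher. Cdh5, the cadherin of endothelial junctions, was at 12.44, 12.25 and 15.57 on the miR-34a arrays and 16.80, 15.65 and 15.98 on the miR-324 arrays, and the pair was lower, with a difference of -3.80 (SE 0.76, adjusted p 0.0382). Pecam1, another junction protein, was at 10.35, 10.38 and 14.06 against 14.96, 13.41 and 13.75, -3.68 in the pair (adjusted p 0.0382), and Erg, an endothelial transcription factor, at 9.40, 9.28 and 12.85 against 13.82, 12.86 and 13.21, -3.96 (adjusted p 0.0382). The VEGF receptors Flt1 and Kdr, Tie1, Esam and Emcn made up the rest, with differences from -3.19 (Tie1) to -1.71 (Esam). The list median was 9.98, 9.79 and 12.20 with miR-34a, 12.87, 12.07 and 11.62 with miR-324 and 9.89, 10.30 and 11.53 with scramble. miR-34a 3 and scramble 3 were thus near the level of the miR-324 arrays, and the list median differed by -2.78 for the pair and -0.06 for miR-34a 3. With 3 arrays against 3 it was -1.76, and without 1 array it lay between -2.78 and -1.20. Cdh5, Tek, Cldn5 and Erg were separated and lower with 3 against 3, against 9.25% of all genes. With the suffix as a fixed block the median was -0.39 for the pair and -0.28 with 3 against 3. All 12 mural cell genes had a higher mean in the pair, with a median difference of 0.44. Of these 1 passed, Pdgfrb, by 3.18 (adjusted p 0.0469).

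The median of the pan-neuronal list lay well above the floor on all 6 arrays, as the label of TG neurons implies, but at uneven levels. On miR-324 1 the median of the sensory neuron list was 5.88, near the 95th percentile of the floor probes there, 5.71. Snap25, a protein of the synaptic vesicle fusion machinery, was at 15.85, 15.73 and 12.64 on the miR-34a arrays and 12.09, 14.74 and 14.54 on the miR-324 arrays, so that miR-34a 3 and miR-324 1 were the low arrays. The pair was higher by 2.00 (adjusted p 0.0913), which did not pass. Of 25 pan-neuronal genes, 7 passed in the pair, all higher, against 2.56% of all genes: Tubb3, Syn1, Elavl4, Uchl1, Ncam1, Vamp2 and Prph. Tubb3, the neuronal beta tubulin, was at 14.87, 14.80 and 10.15 against 10.83, 12.93 and 12.55, 2.73 in the pair (adjusted p 0.0425). The list median was 13.50, 13.35 and 9.94 against 10.16, 12.20 and 12.25, a median difference of 1.59 for the pair, -1.63 for miR-34a 3 and 0.44 for all 3. Without 1 array the last lay between 0.03 (without miR-324 1) and 1.59 (without miR-34a 3), and with the suffix as a fixed block it turned to -0.64, with 0.26 for the pair. No pan-neuronal gene was separated with 3 against 3.

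Of 30 sensory neuron genes, 10 passed in the pair and all were higher, against 2.56% of all genes. They included ion channels of pain and temperature sensing (Trpa1, Trpm8), the sodium channels Scn10a and Scn11a, the neuropeptide genes Calcb and Tac1, the GDNF family receptors Gfra2 and Gfra3, the transcription factor Pou4f1 and the actin regulator Avil. Trpa1, the irritant receptor, was at 10.60, 10.68 and 5.07 against 5.45, 6.99 and 6.95, 4.18 in the pair (SE 0.85, adjusted p 0.0382). Trpm8, the cold receptor, was at 8.78, 9.28 and 6.50 against 5.46, 5.71 and 5.95, 3.32 (SE 0.61, adjusted p 0.0382). With 3 arrays against 3, Trpm8, Runx1 and Gfra1 were separated and higher, 3 of the 30 genes, near the 7.81% of all genes. Trpv1, the heat and capsaicin receptor, was at 7.91, 7.58 and 3.54 against 3.75, 5.99 and 5.97, 2.51 in the pair, which did not pass (adjusted p 0.076). miR-34a 3 and miR-324 1 were both at the floor for Trpv1. The median difference of the sensory list for the pair went from 1.90 to 0.05 with the suffix as a fixed block, and for all 3 it turned from a positive value to -0.38. In a separate list of sodium channels, all 8 measured genes had a higher mean in the pair, and 1 passed, Scn7a (2.86, adjusted p 0.0397). Scn10a and Scn11a were counted in the sensory list. In the comparison of miR-34a 3 with miR-324, 0 sensory genes passed, 12 lay below all miR-324 arrays, as did 24.5% of all genes, and 3 above, as did 29.5%.

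No member passed in any of the comparisons with miR-324 among 13 adrenergic and 11 cholinergic genes. Th, tyrosine hydroxylase, the first enzyme of catecholamine synthesis, was at 5.90, 6.23 and 4.64 with miR-34a and 5.60, 5.35 and 4.61 with miR-324, a difference of 0.40 (SE 0.45). The list medians differed by -0.04 and 0.23, and no member of either list was separated. Of 26 nerve injury and regeneration genes, the pair passed as higher at Cacna2d1, a calcium channel subunit, by 2.13 and Arg1, arginase 1, by 2.36. Of 22 axon guidance genes, the pair passed as higher at the receptor Robo2 (2.40) and as lower at Nrp2 (-2.18) and Efnb2 (-1.85).

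Of 28 cell cycle genes, 6 passed in the pair (Cdc20, Aurka, Aurkb, Bub1, Nusap1 and Tpx2, all of mitosis), all higher, against 2.56% of all genes. The list median was 8.39, 8.67 and 6.03 on the miR-34a arrays and 6.75, 6.24 and 6.20 on the miR-324 arrays. Aurka, a kinase of the mitotic spindle, was at 7.51, 7.70 and 6.10 against 5.75, 5.64 and 5.67, 1.92 in the pair (adjusted p 0.0475). Mki67, the proliferation antigen Ki-67, was at 11.04, 10.62 and 6.47 against 8.14, 8.34 and 8.78, 2.41 in the pair (adjusted p 0.113). Mki67 did not pass, and its lowest array was miR-34a 3. With 3 against 3, Aurka, Kif23, Cenpf, Mcm3 and Pcna were separated and higher, 5 of the 28 genes, against 7.81% of all genes. The median difference of the list, 1.90 for the pair and 1.06 with 3 against 3, turned to -0.17 and -0.41 with the suffix as a fixed block. Among 13 E2F and cyclin regulators the pair passed as higher at Ccne1 (1.53) and Cdk6 (2.00).

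Of 16 cholesterol synthesis genes, 4 passed in the pair, Hmgcs1, Fdft1, Fdps and Mvk, enzymes of the path from acetyl-CoA to squalene. All 4 were higher, by 2.01, 1.88, 1.23 and 1.93, where 2.56% of all genes passed as higher. The list median was 11.79, 11.82 and 10.30 with miR-34a and 9.64, 11.36 and 10.88 with miR-324, and differed by 1.21 in the pair and -0.04 on miR-34a 3. With the suffix as a fixed block the pair's value was 0.06. Of 20 hypoxia and glycolysis genes the pair passed as higher at Pfkp (2.19) and Ldha (1.54), the latter lactate dehydrogenase A. Macrophage, neuronal, endothelial and cell cycle lists each had a median on the pair that lay apart from that on miR-34a 3, with no test of that difference. Their part in one another's differences was not tested.

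**Figure D3:**
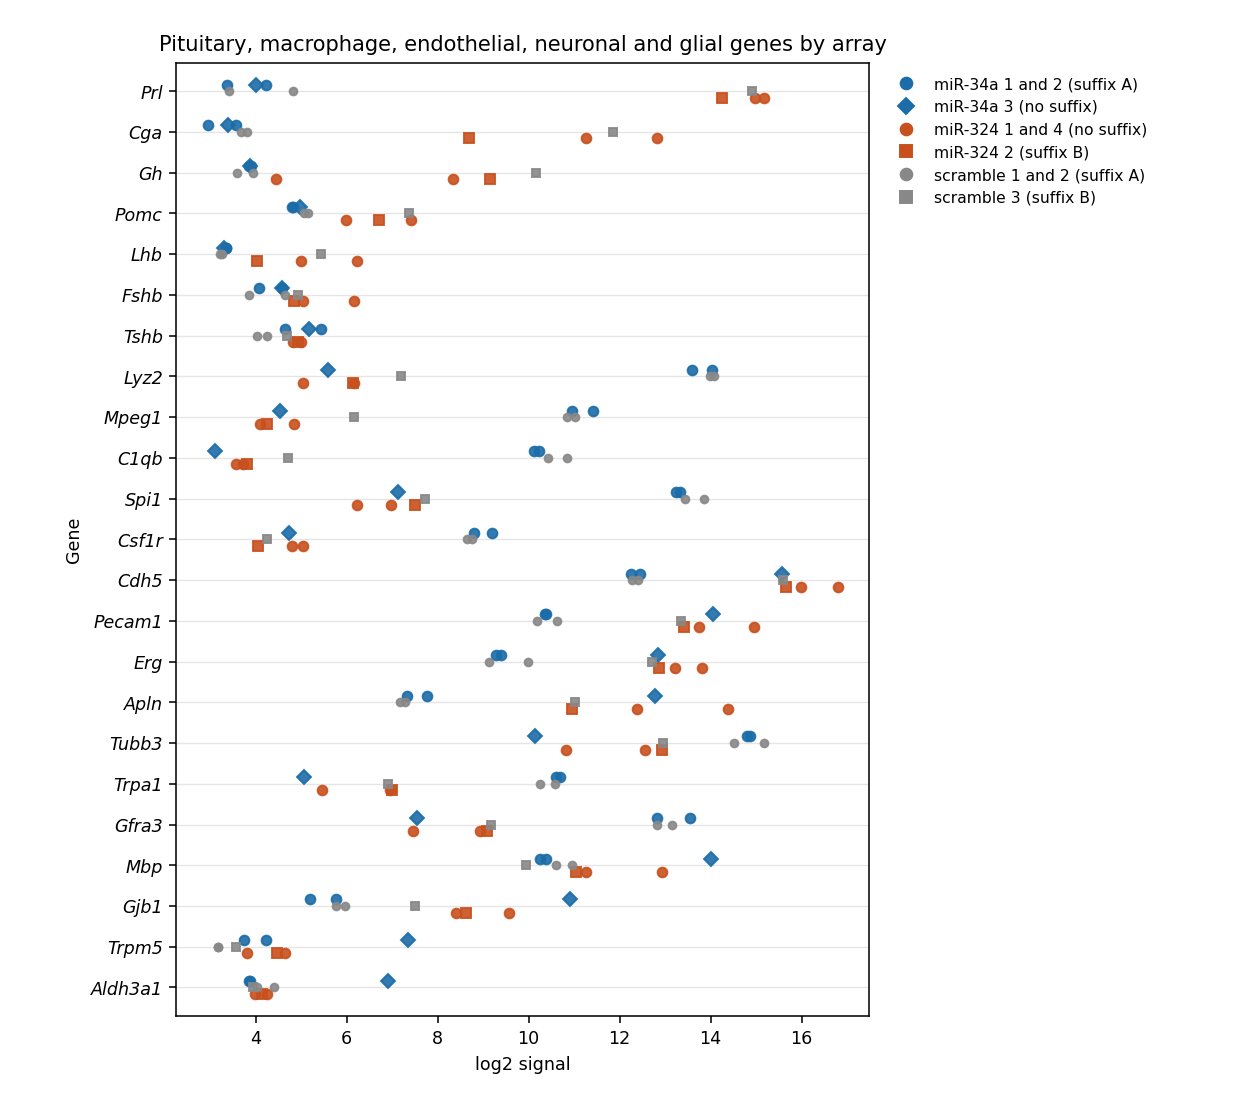
Log2 signal (x axis) of 23 pituitary, macrophage, endothelial, neuronal, glial and other named genes (y axis), 1 marker an array, with blue for miR-34a (diamond array 3), orange for miR-324 (square array 2) and grey for scramble (square array 3). For Lyz2 the miR-34a pair lies at 14.03 and 13.60 while miR-34a 3, at 5.58, lies among the miR-324 arrays; for Prl all 3 miR-34a arrays are at or below 4.22 and all 3 miR-324 arrays at or above 14.26.

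Taken alone, miR-34a 3 gave 2 calls against miR-324 (0.0102%), both higher. This array has no replicate under its label and was assumed to vary like the others. Aldh3a1, an aldehyde dehydrogenase of cornea and stomach, was at 3.85, 3.87 and 6.91 on miR-34a 1, 2 and 3 and 4.24, 4.15 and 3.98 on the miR-324 arrays, a difference of 2.79 (SE 0.29, adjusted p 0.0104, limma). Trpm5, a cation channel of taste and chemosensory cells, was at 3.74, 4.23 and 7.34 against 4.64, 4.46 and 3.81, a difference of 3.04 (SE 0.37, adjusted p 0.025). For both genes miR-34a 3 stood alone above every other array of the comparison, the pair being at the level of miR-324. Neither passed without miR-324 4, and Trpm5 also not without miR-324 2, miR-34a 1 or miR-34a 2. Without miR-324 1 there were 508 calls.

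Genes of peripheral myelin were high on miR-34a 3, as they were on the miR-21 arrays. Of 12 measured, 0 passed against miR-324, while 10 lay above all miR-324 arrays, against 29.5% of all genes, and 1 below, against 24.5%. Mbp, myelin basic protein, was at 10.38, 10.26 and 14.01 on the miR-34a arrays and 12.94, 11.04 and 11.26 on the miR-324 arrays, 2.26 for miR-34a 3 (adjusted p 0.206). Gjb1, the gap junction protein of myelin, was at 5.76, 5.19 and 10.90 against 9.58, 8.62 and 8.41, 2.03 for miR-34a 3 and -3.40 for the pair (adjusted p 0.258 and 0.0252). The pair passed as lower for Gjb1, and as higher for Pmp22 (1.99), a membrane protein of compact myelin. The list median was 6.08, 6.10 and 8.66 against 7.12, 6.22 and 6.34. On miR-21 1, 2 and 3 it was 9.46, 8.87 and 8.96, above miR-34a 3, and on scramble 1, 2 and 3 it was 5.92, 5.84 and 5.82. Among 12 satellite glia genes the pair passed as higher at Fabp7 (3.89), a fatty acid carrier, and Apoe (5.28). Apoe is a lipid carrier that macrophages also make.

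The difference between the miR-34a arrays was tested directly. Between the pair and miR-34a 3 limma called 936 genes (4.78%), 533 higher in the pair (2.72%) and 403 lower (2.06%); centring each array on its median gave 507 higher and 599 lower. Without miR-34a 1 there were 0 calls, without miR-34a 2 there were 3, and without miR-324 1 there were 1616. With the suffix as a fixed block the calls were Prl and Cga, which were not called without it. Their differences were 11.39 and 11.33 with the block and -0.22 and -0.14 without it. With the suffix as a random block only part of the calls were left. The median difference between the pair and miR-34a 3 was 3.25 for pan-neuronal, 2.82 for sensory neuron, 3.26 for macrophage and 2.84 for cell cycle genes. It was -2.97 for endothelial and -1.67 for myelin genes, against -0.14 for all genes. The 3 measured Y-linked genes were also lower in the pair. Eif2s3y, a Y-linked translation factor gene, was at 2.27, 2.79 and 8.53 on miR-34a 1, 2 and 3 and at 7.88, 2.96 and 5.13 on miR-324 1, 2 and 4, -6.00 between the pair and miR-34a 3 (SE 1.29, adjusted p 0.0243). Uty was at 4.50, 4.24 and 10.35 against 8.46, 5.17 and 7.44, and Kdm5d at 3.74, 3.18 and 7.20 against 6.32, 2.84 and 4.65. The Y-linked level thus differed between arrays of each group, high on miR-34a 3 and miR-324 1 and low on the pair and miR-324 2. On miR-21 1, 2 and 3 Eif2s3y was also high, at 7.26, 7.09 and 7.85, and on scramble 1, 2 and 3 it was at 2.93, 2.27 and 2.13.

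Interferon-induced genes had lower values with miR-34a than with miR-324. Of 28 measured, 15 were separated with 3 arrays against 3, all lower with miR-34a, against 9.25% of all genes, and the median difference was -1.31. 0 passed the threshold with 3 against 3. Type I interferon acts through the STAT and IRF factors of ISGF3 on promoters with an interferon-stimulated response element (ISRE), and the genes so induced encode RNA sensors, antiviral effectors and antigen presentation proteins. The list medians were 7.63, 7.78 and 8.04 on the miR-34a arrays, 10.10, 8.79 and 9.14 on the miR-324 arrays and 7.33, 7.70 and 9.82 on the scramble arrays. All 3 miR-324 arrays were above all 3 miR-34a arrays, and scramble 3 was at the miR-324 level.

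Among the sensors, Ifih1, the RNA sensor MDA5, was at 7.79, 8.44 and 9.84 against 11.78, 9.85 and 10.17, a difference of -1.91 (SE 0.64). In the pair the difference was -2.49, and it was the one member past the threshold there (adjusted p 0.0472). Ddx58, the sensor RIG-I, was at 9.31, 9.23 and 9.51 against 11.16, 9.58 and 9.86, a difference of -0.85 (SE 0.44). Of the effectors, Cmpk2, a mitochondrial nucleotide kinase, was at 5.79, 6.00 and 7.38 against 11.55, 8.69 and 9.28, -3.45 (SE 1.00), and Ifit3, which binds viral RNA, at 9.05, 9.13 and 10.46 against 14.54, 11.43 and 12.31, -3.21 (SE 1.08). Rsad2, viperin, was at 5.40, 5.81 and 8.16 against 10.14, 8.78 and 9.22, -2.92 (SE 1.05). In these effectors miR-324 1 was the highest array and miR-34a 3 the highest of its group.

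Ifit1 was at 7.96, 8.52 and 7.59 against 11.28, 9.45 and 9.07, -1.91 (SE 0.69), and here miR-34a 3 was the lowest of the 6 arrays. Isg15, a ubiquitin-like modifier, overlapped at 4.97, 5.36 and 6.45 against 9.71, 6.36 and 7.37, with a difference of -2.22 (SE 0.78), as did Irf7, the factor that amplifies the response, at 5.64, 5.75 and 6.66 against 10.84, 6.56 and 8.79. Usp18, which removes Isg15 from proteins, was separated, at 6.57, 6.92 and 7.62 against 10.47, 8.13 and 8.93, and so were the guanylate-binding proteins Gbp2 (-2.11) and Gbp3 (-2.26) and the peptide transporter Tap1 (-1.31). The other separated members were Ifit3b, Mx2, Oas1a, Ifi35 and Xaf1. No member was separated in the other direction, and the 13 overlapping ones, among them Stat2 (-0.21), Irf9 (0.11), Ifit2 (0.11) and Oas2 (-0.14), included values near 0. Against the same miR-324 arrays, the median difference was -1.53 for the pair and -1.11 for miR-34a 3, which lay below all miR-324 arrays at 19 of the 28 genes, where 24.5% of all genes did. Leaving out each of the 6 arrays in turn kept the median of the 3-against-3 comparison between -1.58 and -0.88. Suffix as a fixed block gave -0.61 for it and 0.99 for the pair.

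**Figure D4:**
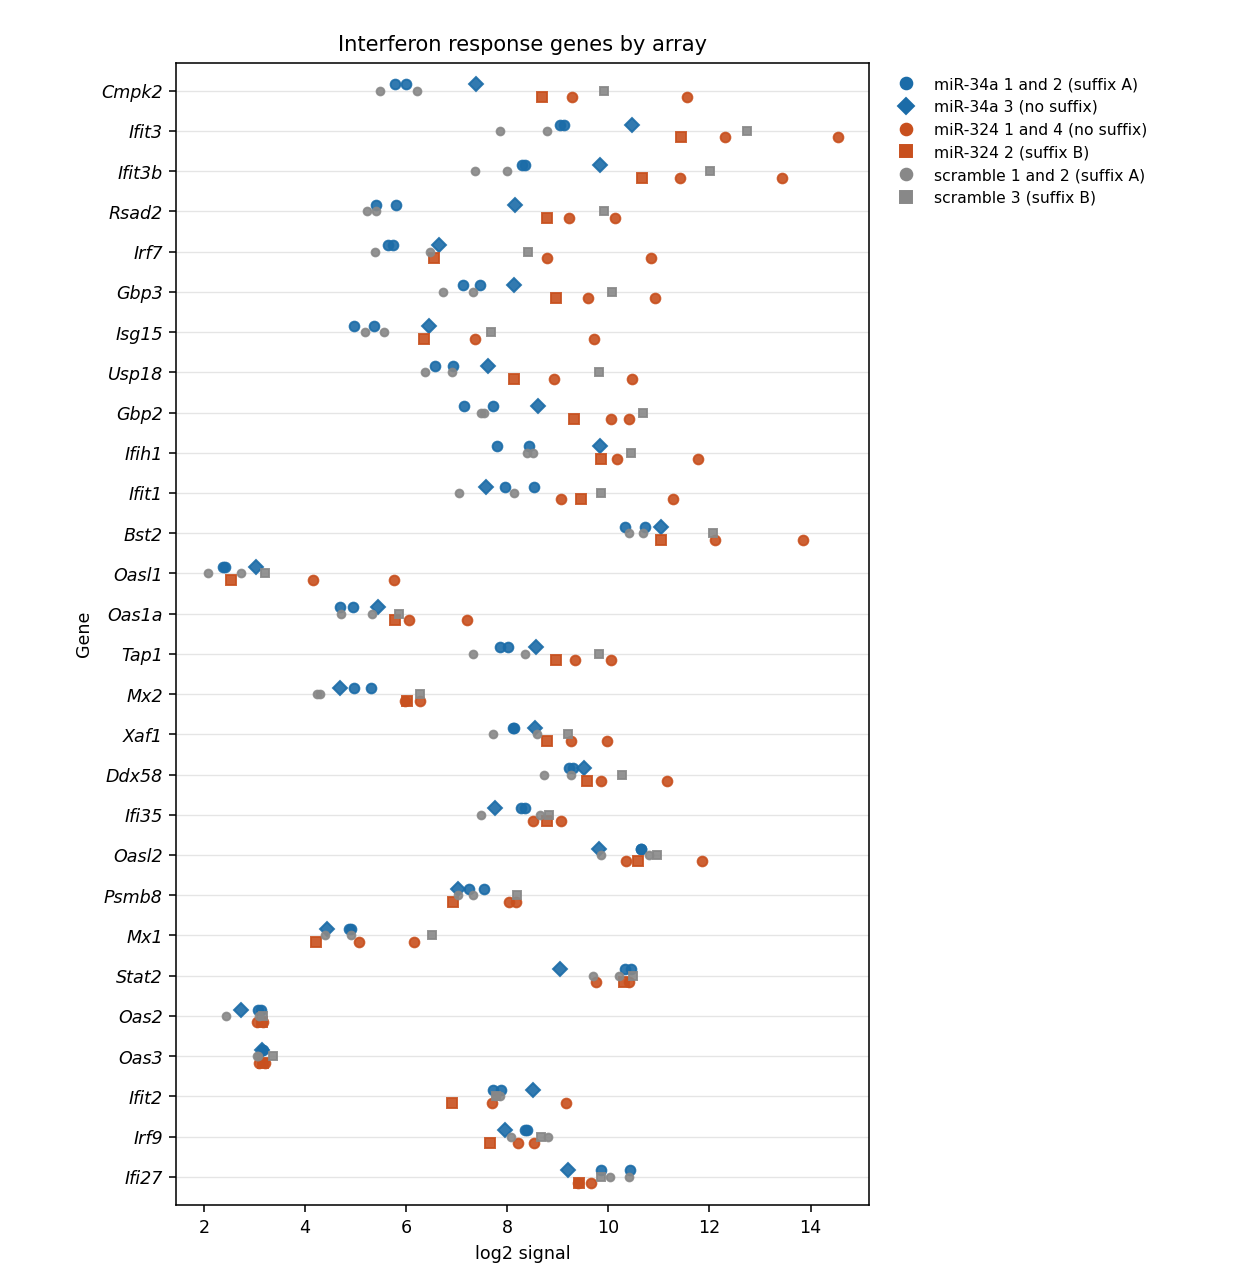
Log2 signal (x axis) of the 28 measured interferon response genes (y axis), ordered by their difference between miR-34a and miR-324, 1 marker an array, with blue for miR-34a (diamond array 3), orange for miR-324 (square array 2) and grey for scramble (square array 3). Cmpk2, at the top, lies between 5.79 and 7.38 on the miR-34a arrays and between 8.69 and 11.55 on the miR-324 arrays.

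The promoter of Ifit1 is shown as an example of the letters these genes share. Searched on both strands of the 250 bases before each start, the ISRE letters, GAAA, any 2 bases and GAAA again, were in 11 of 23 interferon response promoters (47.8%), against 544 of 15691 measured genes (3.47%). The list was chosen as interferon-induced genes, so this share describes the list and is no result of the arrays. The Ifit1 sequence is chr19:34640639-34640888, plus strand, from RefSeq, GRCm38.p6, with its 2 matches in capitals.
Ifit1: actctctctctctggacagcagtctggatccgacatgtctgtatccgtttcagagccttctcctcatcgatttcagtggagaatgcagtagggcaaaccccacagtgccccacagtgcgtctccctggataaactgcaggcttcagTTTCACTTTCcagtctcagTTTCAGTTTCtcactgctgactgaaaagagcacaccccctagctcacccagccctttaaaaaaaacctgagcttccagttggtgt
The others with a match were Stat2, Ifit3, Ifit3b, Isg15, Rsad2, Oas1a, Oas3, Bst2, Gbp2 and Gbp3. They include genes that were separated (Ifit3, Rsad2, Gbp2) and genes that were not (Stat2, Oas3, Isg15). The letters GAGGAAGT of PU.1 were in 1 of 15 macrophage promoters (C1qc), 6.67% against 2.63% of measured genes.

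Inflammatory genes other than those induced by interferon passed in both directions. Of 22 genes of NF-kB and inflammation, the pair passed as higher at the chemokines Ccl3 (3.46) and Ccl7 (1.84). It passed as lower at the NF-kB inhibitor Nfkbia (-1.91) and the apoptosis inhibitor Birc3 (-0.87). Ccl5, a chemokine that draws T cells, was separated with 3 against 3, at 4.28, 4.43 and 4.83 against 7.11, 5.31 and 5.37. So were Cxcl2 and Ptgs2, and all 3 were lower with miR-34a, against 9.25% of all genes. Among 19 immediate early genes, the pair passed as lower at Fos (-1.99), Jund (-1.10) and Nr4a2 (-1.62) and as higher at the phosphatase gene Dusp1 (1.50).

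Of 40 measured reported targets of miR-34a, 0 passed with 3 against 3. On the miR-34a arrays 5 were separated and lower (9.25% of all genes were) and 4 separated and higher (7.81% of all genes), shares near those of all genes. The median difference was 0.14, against -0.03 for all genes, and its sign turned with quantile normalization again (-0.02) and with the suffix as a fixed block (-0.15). Of the receptors, Notch1 was at 6.48, 6.97 and 6.88 with miR-34a and 7.45, 8.27 and 7.99 with miR-324, a difference of -1.13 (SE 0.40), and Notch2 at 8.72, 8.75 and 8.60 against 9.01, 8.89 and 9.39, -0.41 (SE 0.23). Both were separated and lower with miR-34a. Met, the receptor of hepatocyte growth factor, overlapped, at 11.62, 11.75 and 11.91 against 11.22, 12.29 and 11.61, with 0.05 (SE 0.26), and its sign turned under several settings.

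Sirt1, a deacetylase that acts on p53, was at 11.10, 10.87 and 11.74 against 11.52, 11.32 and 11.55, a difference of -0.23 (SE 0.26), with the pair below and miR-34a 3 above all miR-324 arrays. Bcl2, an inhibitor of apoptosis, was at 11.52, 11.51 and 11.20 against 10.54, 10.72 and 10.92, separated and higher with miR-34a by 0.68 (SE 0.29), as was the adhesion receptor Cd44, by 0.82 (SE 0.29). Nampt, an enzyme of NAD synthesis, was separated and lower, with a difference of -0.90 (SE 0.28). Cdk6, a kinase that drives entry into S phase, was at 10.09, 10.43 and 7.08 against 8.07, 8.38 and 8.32; the pair was higher by 2.00 (SE 0.50, adjusted p 0.0467) and miR-34a 3 differed by -1.18. In the pair, the 5 members past the threshold (Cdk6, Pdgfrb, Csf1r, Ldha and Vamp2) were all higher, against 2.56% of all genes. Csf1r is also in the macrophage list, Pdgfrb in the mural cell list and Vamp2 in the pan-neuronal list. Ldha is also in the hypoxia and glycolysis list and Cdk6 among the E2F and cyclin regulators.

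Of 18 measured reported targets of miR-324, 0 passed with 3 against 3. With miR-34a 2 were separated and higher (Gli3 and Mtor, against 7.81% of all genes) and 2 lower (Gli1 and Wnt9b, against 9.25%), again near the shares of all genes. The median difference was 0.02, and between -0.09 and 0.09 with quantile normalization again and the fixed suffix block. Smo, the signal transducer of the Hedgehog pathway, was at 6.42, 6.91 and 6.94 against 6.61, 6.31 and 6.60, overlapping, a difference of 0.25 (SE 0.24). Gli1, a transcription factor and readout of that pathway, was at 4.98, 5.10 and 5.33 against 6.29, 5.73 and 6.19, lower on all miR-34a arrays, with a difference of -0.93 (SE 0.29, adjusted p 0.319). Gli3, a Gli factor that can act as a repressor, was higher, at 7.08, 6.94 and 6.15 against 5.66, 5.85 and 5.77, 0.96 (SE 0.30), and passed in the pair (1.25, adjusted p 0.0422). Kcnd2, the potassium channel subunit Kv4.2, differed by 0.03 (SE 0.20). The pair passed as lower at the transcription factors Foxo1 (-1.36) and Ets1 (-1.29), of which Ets1 is also known from endothelium. Of 13 miRNA processing genes none was separated or passed against miR-324.

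Of 25 p53 target genes, 3 were separated and higher with miR-34a (Rrm2b, Pltp and Tigar) and 4 lower (Pmaip1, Tnfrsf10b, Plk3 and Ddb2), where 7.81% and 9.25% of all genes were. The median difference was -0.29; it lay between -0.56 (without miR-34a 3) and -0.06 (without miR-34a 2) when 1 array was left out, and turned to 0.13 with the suffix as a fixed block. In the pair the death receptor gene Tnfrsf10b (-3.29) and Eda2r (-2.32) were lower and passed. On miR-34a 3, 15 lay above and 4 below all miR-324 arrays, where 29.5% and 24.5% of all genes did.

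Of 26 measured genes of oxidative phosphorylation, the respiratory chain and ATP synthase, 22 had a higher and 4 a lower mean with miR-34a, none past the threshold. Of the 26, 9 were separated and higher, against 7.81% of all genes, and none lower, with a median difference of 0.36, 0.33 for the pair and 0.21 for miR-34a 3. The median turned to -0.13 for the pair with the suffix as a fixed block and to -0.06 for miR-34a 3 with quantile normalization again. The separated genes were the complex I subunits Ndufb3, Ndufb5 and Ndufv1, the complex II subunits Sdha, Sdhb and Sdhd, Uqcrfs1 of complex III, and Atp5a1 and Atp5c1 of the ATP synthase. Sdhb was at 11.90, 11.72 and 11.75 with miR-34a and 11.56, 11.59 and 11.57 with miR-324, a difference of 0.22 (SE 0.25). Atp5a1 was at 16.64, 16.16 and 16.30 against 16.05, 15.78 and 15.74, 0.51 (SE 0.25). None passed in any of the comparisons with miR-324. Of 14 lysosome genes, Lamp2, Ctsb, Lipa and Npc2 were separated and higher, against 7.81% of all genes, and none lower. The pair passed as lower at Mertk, a receptor for engulfment of dying cells (-2.44).

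Of 22 genes of the integrated stress response, the ATF4 programme, 5 were separated and higher with miR-34a (Asns, Phgdh, Vldlr, Gpt2 and Aldh18a1) and 1 lower (Nupr1), where 7.81% and 9.25% of all genes were. In the pair the serine synthesis genes Psat1 (2.22) and Phgdh (1.48) were higher and passed. Of 15 fibroblast genes 14 had a higher and 1 a lower mean in the pair, with a median difference of 1.19. Those that passed as higher were Postn (3.03), a matricellular protein, and Twist2 (2.29), a transcription factor. Col1a1, a chain of collagen I, was at 10.29, 10.44 and 7.43 against 8.67, 7.34 and 7.79, a difference of 1.45 (SE 0.96) that did not pass. Of 20 matrix genes the pair passed as higher at the laminin chain Lama2 (1.79) and at Tnc (3.04), tenascin C. It passed as lower at Hspg2 (-1.75), perlecan of basement membranes. Of 9 epithelial genes, the pair passed as higher at Cdh1 (3.97), E-cadherin, and as lower at Krt8 (-1.35) and Epcam (-1.40). With 3 against 3, Krt14, Krt8, Krt18 and Epcam were separated and lower, against 9.25% of all genes, and Cdh1 separated and higher, against 7.81%. None of 6 melanocyte genes passed in the pair, and of 7 erythroid genes 1 was measured and did not pass.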

How the data were processed

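The deposited table holds log2 signals of Clariom S Mouse arrays, which the authors made with RMA in Transcriptome Analysis Console 4.0, per the submitters' processing notes. RMA corrects background, gives arrays a common distribution and summarises probes, which removes differences in total signal and compresses those near the floor. The annotation version is not given in the sources used here. Arrays have no read depth, so their number limits precision. A platform table named 19572 of 22206 probes. No column of values was left unused.

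Group means of all 12 arrays were fitted with limma 3.58.1 in R 4.3.3 (lmFit, eBayes; 8 residual degrees of freedom, 7 where miR-34a was split). Tests were two-sided. p-values were adjusted over all named probes by Benjamini-Hochberg and called under 0.05. A gene is called separated where the 3 arrays of 1 group lie above all 3 of the other. Where a listed symbol had several probes, the one brightest on average was used. The fit was tested on simulated data.

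Named genes were the 12 per direction with no overlap, leftover places going to the smallest unadjusted p, 6 per direction past the threshold for the pair and for miR-34a 3, up to 3 members of a list, and genes fixed by name; others are given as list members or were taken after their values were seen, where said. The arrays, lists and tests were chosen with earlier results of these data known. Alternatives were quantile normalization, median centring, bright probes only, a trended prior, array weights, only the 6 arrays, an unadjusted p with a 2-fold difference, the label number or suffix as a block, and leaving out each array. Seed sites in target mRNAs were not analysed here. The labels give arrays of different groups the same numbers. The shared numbers 1 and 2 gave correlations of -0.41 and 0.33 between deviations from the group means, so they were not taken as pairs.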

Additional observations from a re-analysis of the deposited data

Results flagged for a closer look

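The difference between the suffix A pair (miR-34a 1 and 2) and miR-34a 3, each set against the same miR-324 arrays, was tested as a contrast of its own in limma with Benjamini-Hochberg adjustment. It was past the threshold at 936 genes, at 2 with the suffix as a fixed block, at 228 with it as a random block and at 0 without miR-34a 1. The genes called with the fixed block, Prl and Cga, were not among those called without it. Their differences were 11.39 and 11.33 with the block and -0.22 and -0.14 without it. miR-34a 3 is 1 array and was assumed to vary like the others, and no cause was tested. Among the genes named by the rule, the pair was higher than miR-34a 3 at Lyz2 by 8.23 (adjusted p 0.0386), C1qb by 7.07 (0.0379), Mpeg1 by 6.65 (0.0254) and Cd36 by 6.09 (0.0316), all genes of macrophages. It was also higher at Mki67 by 4.36 (0.0453), Trpv1 by 4.20 (0.0362) and Cdk6 by 3.18 (0.023). Lower values in the pair were found for the Y-linked Eif2s3y, with a difference of -6.00 (0.0243), for Mbp with -3.69 (0.0146), Trpm5 with -3.36 (0.00559), Aldh3a1 with -3.05 (0.00497) and Shank3 with -1.55 (0.0415). Shank3 was separated between miR-34a and miR-324 all the same, miR-34a 3 lying between the pair and the miR-324 arrays. Groups of 3 arrays were too small to test for a single far array.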

How the results depend on the processing

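With 3 arrays against 3, 0 genes were called, and 2806 with array weights, 1 with only the 6 arrays (Prl) and 868 at an unadjusted p with a 2-fold difference; leaving out 1 array gave 0 to 801. The 801 calls of the pair against miR-324 became 3715 with array weights, 2396 at the unadjusted p with a 2-fold difference, and 0 where the suffix was a fixed or a random block; leaving out 1 array gave 0 to 839. The 2 calls of miR-34a 3 became 0 among bright probes, 904 with array weights, 1 with only the 6 arrays, 7 with the fixed suffix block and 1388 at the unadjusted p with a 2-fold difference, and 0 to 508 without 1 array. The 936 calls between the pair and miR-34a 3 became 3418, 2 (fixed block), 228 (random block) and 3069 under the same settings, and 0 to 1616 without 1 array. The replicate block, with the label number as a term, gave 0 calls in each of the 4 comparisons; label number 4 occurs on miR-324 4 alone, so that array drops out of that fit. With the fixed suffix block, miR-324 1 and 4 drop out of the pair's value against miR-324. No value without miR-34a 3 exists for the comparisons of that array. Prl and Cga, the genes called between the pair and miR-34a 3 with the fixed suffix block, were not called there without it. The cause of these shifts was not tested. Quantile normalization again, median centring and a trended prior kept the calls of each comparison within 1.5 times; centring moved the median of all genes between the pair and miR-34a 3 from -0.14 to -0.27.

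Differences turned sign in 28 of 847 values of named genes, 14 of them with the fixed suffix block. With that block these were, for the pair, Spi1 (-0.14), Prl (0.33), Cga (2.68), Apln (0.38) and Tgtp2 (0.68). For 3 against 3 they were Snap25 (-0.47), Trpv1 (-1.07), Th (-0.35), Mki67 (-1.73), Mbp (0.76), Col1a1 (-0.68), Eif2s3y (1.05), Sirt1 (0.21) and Cdk6 (-0.78), and with the random block Mki67 (-0.22), Mbp (0.22) and Eif2s3y (0.02). Leaving out 1 array at a time, Mbp ranged from -1.43 to 0.45, Eif2s3y from -2.79 to 0.49 and Met from -0.19 to 0.35. The signs of Mbp and Eif2s3y turned without miR-324 1, miR-34a 1 or miR-34a 2, and that of Met without miR-324 1 or miR-34a 3. Met also turned with quantile normalization (-0.14), array weights (-0.04), and the replicate block (-0.07). Of the other values 644 kept direction and side of the threshold, 85 passed it only under the alternative and 90 no longer did.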

Other observations

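On the miR-34a arrays, 27 genes lay above and 78 below all 9 other arrays of the study. Among them, chosen after their values were seen, Rps19, a protein of the small ribosomal subunit, was at 10.28, 10.06 and 10.10 on miR-34a 1, 2 and 3, 11.41, 11.36 and 10.87 on miR-324 1, 2 and 4, 10.51, 10.63 and 10.99 on scramble 1, 2 and 3 and 11.69, 11.22 and 11.18 on miR-21 1, 2 and 3. Lsm8, a subunit of the complex that binds U6 snRNA, was above all others, at 9.45, 9.19 and 9.13 with miR-34a against 8.90, 8.25 and 8.59 with miR-324, 8.88, 8.78 and 8.02 with scramble and 8.86, 8.57 and 8.66 with miR-21. Pkhd1l1 was below all others, at 2.78, 2.83 and 3.29 with miR-34a against 5.08, 3.76 and 4.36 with miR-324, 4.10, 3.65 and 4.72 with scramble and 4.20, 4.15 and 3.82 with miR-21, but each of these values lay under the 95th percentile of the floor probes of its array. Olfactory and vomeronasal receptor probes, of which 243 of 1414 (17.2%) were also separated and lower against miR-324, are among the genes below all others. P3h4, a partner of collagen-modifying enzymes, was lowest on the miR-324 arrays, at 6.17, 6.42 and 6.52 against 7.37, 7.62 and 7.07 with miR-34a, 7.51, 7.50 and 7.05 with scramble and 8.89, 7.90 and 8.81 with miR-21.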
